A study of Homo sapiens with 14 samples.

Results

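The proteasome genes described here are the protein-coding genes whose GENCODE symbol starts with PSMA, PSMB, PSMC, PSMD, PSME, PSMF or PSMG followed by a digit, without the inducible catalytic subunits PSMB8 and PSMB9. The rule found 48 of the 58440 genes in the files. Of these, PSMC3IP and PSME3IP1 are named after a proteasome gene they bind to and are not subunits, and they were kept because the rule holds them. RNA-seq was measured in 14 libraries from HEK-293T cells, Jurkat cells and 5 mixtures of both with 80%, 60%, 50%, 40% and 20% HEK cells, with 2 libraries for each of the 7 conditions. HEK-293T cells descend from human embryonic kidney and carry viral transforming genes, and Jurkat cells descend from a human T cell leukemia. The labels name no treatment or edited gene in either line. HEK cells were grown in DMEM and Jurkat cells in RPMI, so that the line and its medium cannot be told apart, and each cell type is represented by a single line. Every tube held 1000000 cells, and a fixed volume of ERCC spike-ins, synthetic RNAs counted beside the genes, was put into the captured mRNA. Per the labels, the libraries of a condition are technical replicates, so errors and p-values here measure technical spread alone.

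The proteasome is the protease complex that degrades proteins tagged with ubiquitin. Its barrel, the 20S core, is built of rings of alpha subunits (PSMA genes) and beta subunits (PSMB genes), of which PSMB5, PSMB6 and PSMB7 encode the catalytic ones. The 19S cap binds and unfolds substrates with a ring of ATPases (PSMC genes) and non-ATPase subunits (PSMD genes). Other members are assembly chaperones (PSMG genes, PSMD5, PSMD9 and PSMD10), activators that open the core without ATP (PSME genes) and the inhibitor PSMF1. In cells exposed to interferon, inducible catalytic subunits such as PSMB10 replace the constitutive ones, and PSME1 and PSME2 together form the PA28 activator, a set known for its part in making peptides for antigen presentation.

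Depth ranged from 4468822 to 28303668 gene counts per library, with the pure Jurkat libraries the shallowest, and the 48 members held between 36432 and 180312 of the counts. All 10 T cell markers were higher in both pure Jurkat libraries and all 10 kidney-line markers higher in both pure HEK libraries, as the labels of the pure lines require. The lists were chosen with earlier results of these data known, so they are no independent check of the labels. The T cell markers summed to 14.1 and 17.7 CPM in pure HEK and to 3009 and 3397 CPM in pure Jurkat. The kidney-line markers summed to 1893 and 1933 CPM in pure HEK and 45.2 and 58.3 CPM in pure Jurkat. Of the sums in pure HEK, NEFM alone held 1152 and 1324 CPM. Libraries of 1 condition differed by more than counting error, since chi-square over its degrees of freedom was 18.4 or more in each of the 7 pairs. The file names form 2 groups that hold 8 and 6 libraries. All pure HEK libraries are in the second and all pure Jurkat libraries in the first, so that the line and this group cannot be told apart between the pure lines.

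In these data the cell lines differed most in PSME1, PSMD5 and PSMA8, which were higher in Jurkat cells. For most subunits of the core and cap, the fitted difference between the lines was within 2-fold. Levels are given as CPM, the counts of a gene scaled to a library total of 1000000 gene counts without spike-ins. Fold changes come from edgeR's quasi-likelihood test with TMM scaling on the 2 pure HEK and 2 pure Jurkat libraries, with Benjamini-Hochberg adjustment over all 15794 genes tested and a threshold of 0.05. TMM scaling placed log2 fold changes 0.23 below those of plain CPM, so a ratio of the CPM values printed here is larger in the HEK direction than the fitted fold. Of the 48 members, 47 could be tested, since PSMB11 had 0 counts in all libraries. PSMB11 encodes a catalytic subunit known from the thymus. Its count of 0 allows up to 0.317 CPM in the shallower pure HEK library and 0.671 CPM in the shallower pure Jurkat library, for counting error only.

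Between the pure lines, 7 of 47 members were higher in HEK cells, beside 24.2% of all genes tested, and 9 were higher in Jurkat cells, beside 19.0% of all genes. As shares of the members these are 14.9% and 19.1%, at or under the share of all genes. The median log2 fold change of HEK over Jurkat was -0.11 over the members and 0.07 over all genes tested. The counts depended on single libraries. Without replicate 1 of pure HEK they were 2 and 6, and without replicate 2 of pure HEK they were 1 and 3. Without replicate 2 of pure Jurkat 4 members were higher in HEK and 10 in Jurkat. The members past the threshold in all 8 alternatives were PSME1, PSMD5 and PSMA8 in the Jurkat direction and PSME3 in the HEK direction.

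**Figure D1:**
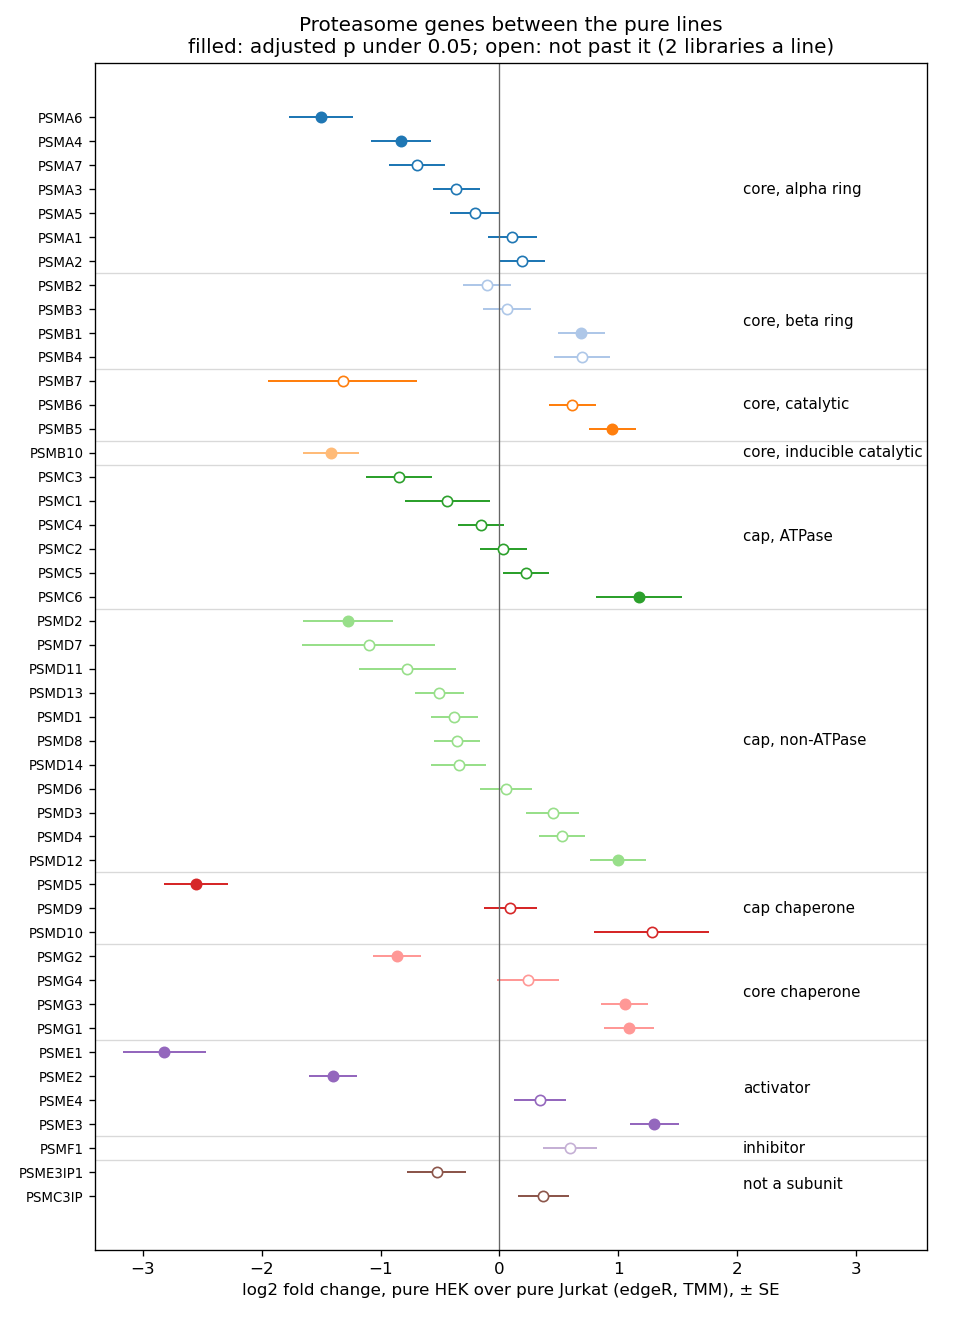
log2 fold change of pure HEK over pure Jurkat libraries for 46 members, grouped by role, with bars of 1 SE and filled points for an adjusted p under 0.05; PSMB11 (0 counts) and PSMA8 (0 counts in HEK) are not drawn. PSME1 lies at -2.82 and PSME3 at 1.31, the ends of the range, and 15 of the points are filled.

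Among the activators PSME1 and PSME2 went one way, and PSME3 and PSME4 did not follow. PSME1 measured 94.4 and 79.6 CPM in the pure HEK libraries and 678 and 373 CPM in the pure Jurkat libraries. Both Jurkat libraries lay above both HEK libraries, although they differed 1.82-fold from each other. The log2 fold change was -2.82 ± 0.35 (SE), with an adjusted p of 0.0037. PSME2, the partner of PSME1 in the PA28 ring, measured 27.9 and 28.8 CPM in HEK and 68.0 and 59.8 CPM in Jurkat, a log2 fold change of -1.40 ± 0.20 (adjusted p = 0.0058). PSME2 lost its call when either pure HEK library was left out, with an adjusted p of up to 0.058. PSME3, which forms a nuclear activator of its own, went the other way, with 71.6 and 73.5 CPM in HEK and 23.5 and 26.6 CPM in Jurkat (log2 fold change 1.31 ± 0.21, adjusted p = 0.0074). Exons of PSME3 overlap those of BECN1 on the opposite strand. PSME4, a large single-chain activator known from sperm cells and DNA repair, measured 42.1 and 45.1 CPM in HEK and 26.5 and 32.2 CPM in Jurkat and was not past the threshold (0.34 ± 0.22, adjusted p = 0.26). The inhibitor PSMF1 measured 40.8 CPM in both HEK libraries and 20.4 and 25.6 CPM in Jurkat, and its log2 fold change of 0.60 ± 0.23 also did not pass (adjusted p = 0.087).

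PSME1 and PSME2 are neighbours on chromosome 14 in GRCh38, with 4394 bases between them. PSME1 is on the plus strand at chr14:24136163-24138967 and PSME2 on the minus strand at chr14:24143362-24147570. Exons of PSME1 overlap those of EMC9, and exons of PSME2 overlap those of RNF31, both on the opposite strand, and PSME2 has 6 annotated pseudogenes. The counting of strand is not given in the sources used here, and the counts of PSME2 were fractional in all 14 libraries, so its level is less certain than that of PSME1, which was fractional in 1 library.

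The catalytic subunits of the core did not move together. PSMB5, which cleaves after hydrophobic residues and is the main target of bortezomib, measured 118 and 108 CPM in HEK and 49.0 and 50.9 CPM in Jurkat. The libraries of the lines did not overlap, and the log2 fold change was 0.95 ± 0.20 (adjusted p = 0.016), a call lost without either pure HEK library (adjusted p = 0.11 and 0.086). PSMB6, which cleaves after acidic residues, measured 191 and 180 CPM in HEK and 98.7 and 108 CPM in Jurkat and narrowly missed the threshold (0.61 ± 0.20, adjusted p = 0.056). PSMB7, which cleaves after basic residues, measured 103 and 96.7 CPM in HEK but 87.5 and 336 CPM in Jurkat. The Jurkat libraries lay on both sides of the HEK libraries and differed 3.84-fold from each other, so no level of PSMB7 in Jurkat cells can be given from these data. Its log2 fold change of -1.32 ± 0.63 (adjusted p = 0.15) was -0.02 without replicate 2 of pure Jurkat, and it passed the threshold without replicate 1. PSMB10, the inducible counterpart of PSMB7, measured 16.8 and 13.3 CPM in HEK and 37.2 and 31.8 CPM in Jurkat, a log2 fold change of -1.42 ± 0.24 (adjusted p = 0.0084) whose call was lost without replicate 2 of pure HEK. PSMB10 is on chromosome 16 at chr16:67934506-67936864 on the minus strand, and its exons overlap another annotated gene on the same strand. All 14 of its counts were fractional.

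Of the alpha ring, 3 of 8 members were higher in Jurkat, beside 19.0% of all genes, and none in HEK by edgeR, beside 24.2%, and at an unadjusted p under 0.05 or by DESeq2 none was higher in HEK either. PSMA8 encodes the alpha subunit that replaces PSMA7 in the proteasome of sperm precursor cells. It had 0 counts in both pure HEK libraries and 65 and 45 counts in the pure Jurkat libraries, or 14.5 and 7.25 CPM. Against a floor of 3 counts in each HEK library, its mean in Jurkat was at least 42.3-fold higher (adjusted p = 0.0035 by edgeR). None of its counts was fractional in any library, and no exon of another annotated gene overlaps it at chr18:26133852-26193355. Next to PSMA7, at 1274 and 1016 CPM in Jurkat, it was a minor transcript. PSMA6 measured 86.6 and 65.7 CPM in HEK and 214 and 154 CPM in Jurkat (log2 fold change -1.50 ± 0.27, adjusted p = 0.010), a call lost without replicate 2 of pure HEK. PSMA4, among the most abundant members, had a log2 fold change of -0.83 ± 0.25 with an adjusted p of 0.049, and it lost the call in 4 of 8 alternatives. PSMA1, PSMA2, PSMA3, PSMA5 and PSMA7 did not pass, with log2 fold changes between -0.70 and 0.19. Of the beta ring without catalytic activity, PSMB1 was higher in HEK, with 206 and 189 CPM against 100 and 109 CPM in Jurkat (0.69 ± 0.20, adjusted p = 0.041), and PSMB2, PSMB3 and PSMB4 did not pass. PSMB1 lost its call whichever of the pure libraries was left out, with an adjusted p of up to 0.22.

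Of the 17 ATPase and non-ATPase subunits of the 19S cap, 2 were higher in HEK, beside 24.2% of all genes, and 1 in Jurkat, beside 19.0%. Of the 6 ATPases, PSMC6 alone passed, at 47.0 and 85.4 CPM in HEK and 28.9 and 21.4 CPM in Jurkat (1.18 ± 0.36). Its adjusted p of 0.0499 lay at the threshold, its HEK libraries differed 1.82-fold, and it lost the call in 4 of 8 alternatives. Of the 11 non-ATPase subunits, PSMD12, a subunit of the lid, was higher in HEK, with 181 and 197 CPM against 93.6 and 68.8 CPM (1.00 ± 0.24, adjusted p = 0.023). It lost the call in 3 of 8 alternatives, without either pure HEK library or replicate 2 of pure Jurkat. In the mixed libraries PSMD12 measured 83.5 to 139 CPM, below both pure HEK libraries. Scaled per length as TPM, its pure lines overlapped, at 80.3 and 221 in HEK and 83.7 and 23.8 in Jurkat. PSMD2, a scaffold of the base that binds ubiquitin-like domains, was higher in Jurkat, with 524 and 512 CPM against 339 and 163 CPM in HEK (-1.27 ± 0.38, adjusted p = 0.045). The HEK libraries differed 2.08-fold, and PSMD2 lost its call in 4 of 8 alternatives. The remaining 9 did not pass, and among them PSMD7 measured 784 and 245 CPM and PSMD11 459 and 223 CPM in the Jurkat libraries. Both pairs differed by more than 2-fold and their ranges overlapped those of the HEK libraries. PSMD14, the deubiquitinase of the lid, was level within the spread, at 70.1 and 92.1 CPM in HEK and 90.4 and 85.7 CPM in Jurkat (-0.34 ± 0.23, adjusted p = 0.28).

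The assembly chaperones held some of the larger differences. PSMD5, a chaperone of the 19S base, measured 3.28 and 2.57 CPM in HEK and 13.7 and 15.5 CPM in Jurkat. The lines did not overlap and the log2 fold change was -2.55 ± 0.27 (adjusted p = 0.0023), 5.86-fold on the fitted scale. Its counts were low, from 25 to 96 per library, and PSMD5 had the lowest level per length of the members with counts in every library. PSMD10, another chaperone of the base that is also known as gankyrin, measured 78.8 and 38.6 CPM in HEK and 13.9 and 26.8 CPM in Jurkat (1.28 ± 0.48, adjusted p = 0.085), with about 2-fold between the libraries of each line. Of the chaperones of the 20S core, PSMG1 was higher in HEK, at 62.0 and 52.3 CPM against 23.0 and 22.7 CPM (1.09 ± 0.21, adjusted p = 0.013). PSMG2, with which PSMG1 forms a pair, was higher in Jurkat, at 30.7 and 28.9 CPM against 19.7 and 18.6 CPM (-0.86 ± 0.20, adjusted p = 0.023). PSMG3 was higher in HEK, at 62.9 and 61.9 CPM against 26.4 and 24.9 CPM (1.05 ± 0.20, adjusted p = 0.012), and its partner PSMG4 did not pass (0.24 ± 0.26, adjusted p = 0.49). PSMG1, PSMG2 and PSMG3 lost their calls when either pure HEK library was left out, and PSMG2 also by DESeq2 (adjusted p = 0.071) and with no filter on low counts (adjusted p = 0.081). The fold changes kept their directions in all 8 alternatives.

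Compared per length as TPM, subunits of the same particle had unequal transcript levels. Over the 14 alpha and beta subunits of the constitutive core, TPM in pure HEK ranged from 37.1 for PSMA5 to 1078 for PSMA7, a 29.1-fold range with a median of 178. In pure Jurkat it ranged from 38.7 for PSMA5 to 1577 for PSMA7, with a median of 170. PSMA4 and PSMA7 had the highest mean TPM over all libraries, at 1066 and 1010, and PSMA8 and PSMB11 the lowest, at 1.93 and 0. PSMA5 and PSMB2 were at the lower end of the core and PSMA7 and PSMA4 at the upper end in both lines. Because these libraries were primed with oligo-dT, counts may not scale with transcript length, and TPM then ranks genes only roughly.

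The mixtures were used to see whether the same genes followed the share of HEK cells. In a trend over the 10 mixed libraries, given as the log2 change from 20% to 80% HEK cells, 3 of 47 members fell, beside 5.08% of 17242 genes tested. No member rose by edgeR, beside 0.528% of all genes, nor at an unadjusted p under 0.05 (0 members) or by DESeq2 (0 members). By gene counts per ERCC count in the pure lines, HEK cells gave an estimated 71.5% of the RNA at 20% HEK and 97.6% at 80%. Estimated from the summed T cell markers, the share was 69.4% and 62.1% in the libraries at 20% HEK. In those at 80% it was 96.8% and 96.0%. A gene higher in HEK therefore had little room to rise, so the lack of rising members cannot show that such genes did not follow HEK. PSME1 measured 441 and 372 CPM at 20% HEK, 156 and 141 CPM at 40%, 126 and 119 CPM at 50%, 93.3 and 109 CPM at 60%, and 83.8 and 96.7 CPM at 80%. The libraries at 20% lay well above all others and those from 60% up were near the level of pure HEK. Its trend was -2.21 ± 0.33 (adjusted p = 0.00088). PSMA8 measured 4.35 and 4.41 CPM at 20% HEK, 2.01 and 2.17 CPM at 40%, 1.77 and 1.52 CPM at 50%, 1.80 and 0.618 CPM at 60%, and 0.462 and 0.204 CPM at 80%, with a trend of -3.46 ± 0.47 (adjusted p = 0.00043). At 80% HEK it rested on 7 and 3 counts. PSME2 measured 49.4 and 53.9 CPM at 20% HEK and 22.9 and 30.0 CPM at 80%, and at 50% its libraries held 29.0 and 56.1 CPM, nearly the whole range. Its trend was -0.94 ± 0.24 (adjusted p = 0.041). PSME2 lost this call in 13 of 19 alternatives. Among these were no filter on low counts (adjusted p = 0.066 by edgeR) and the HEK share of RNA as covariate (adjusted p = 0.085).

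The size of the trend of PSME1 rested on the mixture with 20% HEK cells, and those of PSMA8 and PSME2 did not. Without both libraries at 20% HEK, an alternative chosen after seeing the data, the trend was -1.09 for PSME1, -3.89 for PSMA8 and -0.89 for PSME2. In this fit of fewer libraries no member fell by edgeR, with adjusted p of 0.48, 0.085 and 0.70 in that order, while 5 members had an unadjusted p under 0.05. Within the group of file names that holds 6 mixed libraries, PSME1 alone fell (-3.11, adjusted p = 0.031), and PSMA8 and PSME2 gave -3.46 and -0.97. Within the group that holds 4, from 50% to 80% HEK, no member passed by edgeR, while at an unadjusted p under 0.05 5 had a falling and 3 a rising trend. The values there were -0.25 for PSME1, -4.33 for PSMA8 and -1.66 for PSME2. With the group as a term, PSME1 and PSMA8 kept their calls and PSME2 did not (adjusted p = 0.063). PSMD5, PSMA6 and PSMB10 had unadjusted p-values under 0.05 and trends of -1.39 ± 0.39, -0.85 ± 0.27 and -0.85 ± 0.27, with adjusted p of 0.060, 0.098 and 0.10.

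**Figure D2:**
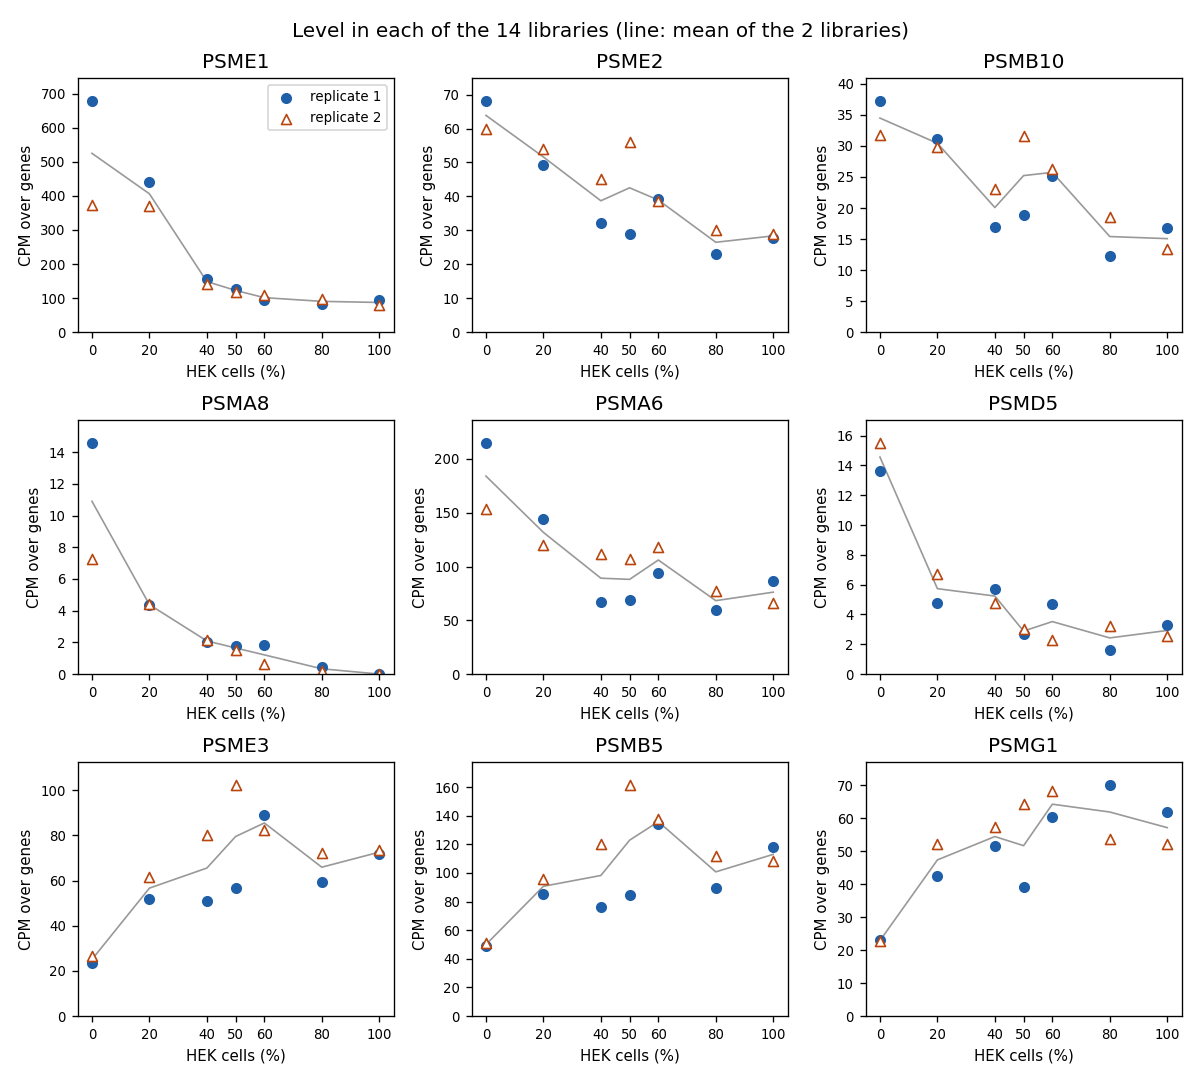
CPM over genes of 9 members against the percentage of HEK cells, with a point for each library (circles replicate 1, triangles replicate 2) and a line through the mean of 2. PSME1 and PSMA8 fall steeply between 0% and 40% HEK, PSME3, PSMB5 and PSMG1 are lowest in pure Jurkat, and the libraries at 40% and 50% are far apart for most of these genes.

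No library enters both comparisons, so the pure lines and the mixtures can be set side by side. Of the 47 members, 35 changed in the same direction in both, or 74.5%, beside 71.7% of the 15554 genes tested in both. Of the 16 members called between the pure lines, 15 kept their direction, PSMA4 being the exception, beside 87.1% of all genes called. The 9 members called higher in Jurkat had a median trend of -0.85, and the 7 called higher in HEK a median of 0.21. Over all genes called, these medians were -0.70 and 0.36.

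**Figure D3:**
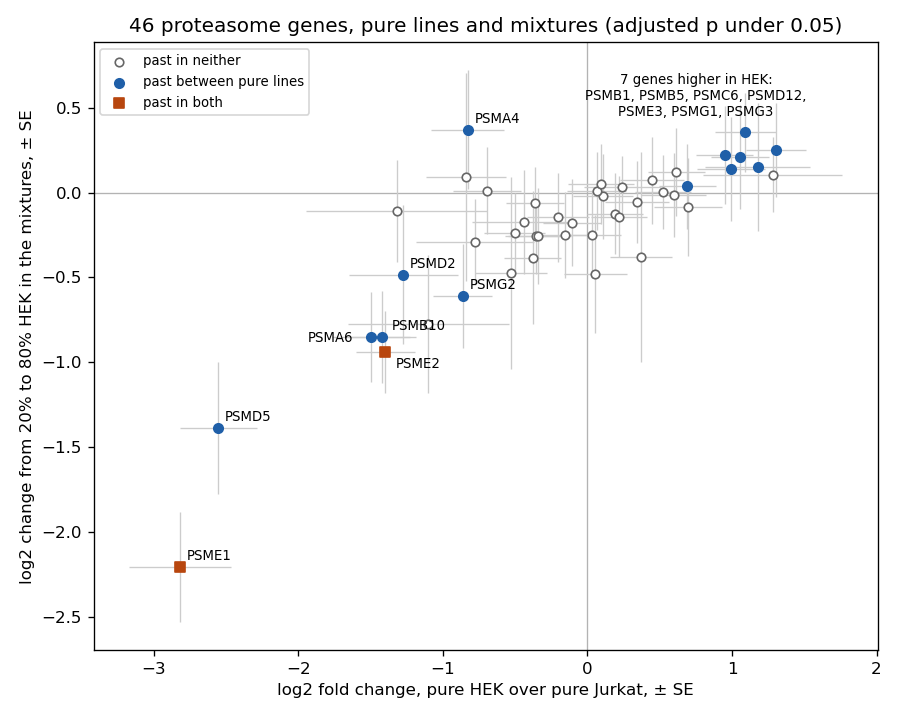
log2 fold change between the pure lines (horizontal) against the log2 change from 20% to 80% HEK in the mixtures (vertical) for 46 members without PSMA8, with bars of 1 SE. PSME1 lies at -2.82 and -2.21 and PSME2 at -1.40 and -0.94, while the 7 genes higher in HEK lie between 0.04 and 0.35 on the vertical axis.

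At 20% HEK, the 9 members called higher in Jurkat were set against the level that adding both pure lines gives. This comparison was chosen after seeing the data. Pure HEK had 10.0 times more gene counts per ERCC count than pure Jurkat, which puts the HEK share of RNA at 71.5% in that mixture and the expected PSME1 level at 212 CPM. The libraries held 441 and 372 CPM, 1.05 and 0.81 above the expectation on the scale of log2(CPM + 1), and in the 8 other mixed libraries PSME1 was between -0.29 and 0.11. With the share taken from the Jurkat markers instead, the excess was 0.99 and 0.55. Over 2419 genes called at least 2-fold higher in Jurkat, the median difference at 20% HEK was 0.07, with a 10th to 90th percentile of -0.38 to 0.64, and 3.27% lay at or above the mean of PSME1. PSMB10 was 0.57 and 0.51 above, PSME2 0.35 and 0.48, PSMA8 0.38 and 0.40 and PSMA6 0.42 and 0.16, all inside that range. With the share from the Jurkat markers PSMA8 was 0.30 and 0.08 above, PSMA6 0.39 and 0.03, PSMB10 0.54 and 0.39 and PSME2 0.32 and 0.36. PSMA4 was below the expectation in both libraries, at -0.27 and -0.40, and PSMD2 (0.15 and -0.10), PSMD5 (-0.33 and 0.09) and PSMG2 (-0.04 and 0.21) lay on both sides of it. No test was made on these differences, and the spread of PSME1 between the pure Jurkat libraries enters its expectation. For the 2419 genes, the share above the expectation in both libraries was not counted, so nothing is read from how many members exceeded it. The ratio of 10.0 rests on pure HEK libraries with 147 and 97.3 gene counts per ERCC count. The paper reported a lower ratio of mRNA content, with which the expected levels of genes higher in Jurkat would be higher.

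The libraries of a condition differed together in many of these genes. At 50% HEK, replicate 1 was lower than replicate 2 in 33 of 47 members, beside 61.4% of all genes tested. The median log2 ratio was -0.60 over the members and -0.21 over all genes tested. At 40% HEK replicate 1 was lower in 34 of 47, beside 62.6% of all genes tested, with a median of -0.47 beside -0.18. At 50% PSMB1 measured 144 and 256 CPM, PSMB5 84.7 and 161 CPM and PSMB6 147 and 247 CPM. Against that direction, PSMA4 measured 929 and 591 CPM there, PSMC3 205 and 84.0 CPM, PSMC3IP 69.0 and 24.3 CPM and PSME3IP1 124 and 45.3 CPM. For PSMC3, PSMC3IP and PSME3IP1 the value of replicate 1 stood above those of all other libraries. That replicate 1 at 50% HEK is the deepest library. Without replicate 1 at 50% and at 40% HEK, an alternative chosen after seeing the data, 4 members fell with HEK in the mixtures, PSMA6 joining the other 3 at an adjusted p of 0.040. In the other 5 pairs the median ratio of the members lay between -0.11 and 0.10.

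**Figure D4:**
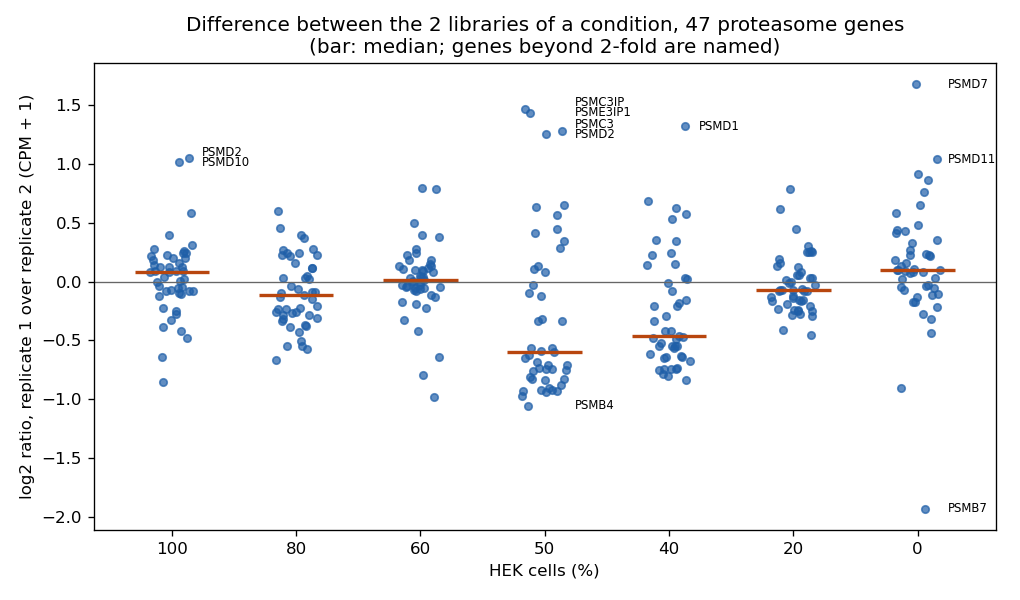
log2 ratio of replicate 1 to replicate 2, on CPM + 1, for 47 members in each condition, with bars for medians and names for genes beyond 2-fold. The medians at 50% and 40% HEK, -0.60 and -0.47, are below those of the other pairs, and PSMB7 and PSMD7 in pure Jurkat are the widest pairs.

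The members as a whole took a similar share of the transcriptome in each mixture. They held 0.628% and 0.632% of gene counts in pure HEK, 0.815% and 0.697% in pure Jurkat, and 0.599% to 0.674% in the mixtures. Both Jurkat libraries were above all others, but PSMA4, PSMA7 and PSMD1 alone made up 34.3% and 39.8% of the member counts in Jurkat and 30.0% and 34.7% in HEK. With 2 libraries against 2, an exact permutation test cannot give a two-sided p under 0.33, and none was run.

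Counted against the spike-ins the picture of the lines changed. The 48 members had 0.926 and 0.615 counts per ERCC count in pure HEK and 0.0985 and 0.0859 in pure Jurkat. On this scale 44 of 47 members were higher in HEK, beside 92.5% of all genes, and 1 was higher in Jurkat, beside 3.22%, with a median log2 fold change of 3.45 over the members and 3.61 over all genes. PSMA8 was the one higher in Jurkat, at least 4.01-fold against the floor of 3 counts per library. PSME1 had 13.9 and 7.74 counts per 1000 ERCC counts in HEK and 8.19 and 4.60 in Jurkat. The lines overlapped, and its difference of 0.76 ± 0.50 did not pass (adjusted p = 0.13), except without replicate 2 of pure HEK (1.12, adjusted p = 0.0496). PSMD5 had 0.484 and 0.250 in HEK and 0.165 and 0.191 in Jurkat, a difference of 1.01 ± 0.61 that did not pass either (adjusted p = 0.10), except without the same library (1.44, adjusted p = 0.034). PSMB10, by contrast, had 1.89 ± 0.833 (SD, n = 2) in HEK and 0.421 ± 0.0402 in Jurkat, and was higher in HEK on this scale (2.16 ± 0.55, adjusted p = 8.9e-05) while lower as CPM. The labels state the same number of cells for every tube, and no value in the files measures it, so that fewer cells and less captured mRNA per cell cannot be told apart.

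**Figure D5:**
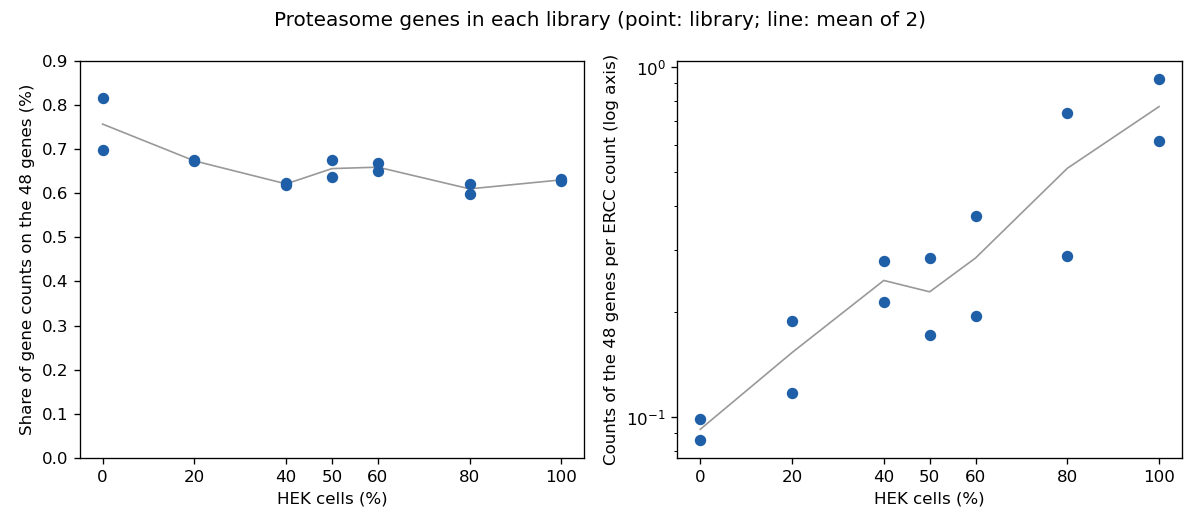
Share of gene counts on the 48 members (left, %) and their counts per ERCC count (right, log axis) against the percentage of HEK cells, with a point for each library and a line through the mean of 2. The share stays between 0.599% and 0.815%, while counts per ERCC count range from 0.0859 to 0.926.

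Genes that work with the proteasome also differed in both directions. Of 29 such genes, 6 were higher in HEK and 2 in Jurkat between the pure lines, beside 24.2% and 19.0% of all genes, and their median log2 fold change was -0.03. When either pure HEK library was left out, 3 were higher in HEK and 0 in Jurkat by edgeR, with 1 and 3 lower in HEK at an unadjusted p under 0.05, and with all libraries DESeq2 called 6 and 1. In the mixtures none passed by edgeR, 5 had an unadjusted p under 0.05, and DESeq2 called 2 rising and 1 falling with HEK. In HEK the shuttle factor UBQLN4 (log2 fold change 1.81 ± 0.25), the polyubiquitin gene UBB (1.74 ± 0.21) and the E3 ligase UBE3C (1.37 ± 0.20) were higher, each with an adjusted p of at most 0.0061. In Jurkat USP14, a deubiquitinase of the 19S cap, was higher (-1.22 ± 0.20, adjusted p = 0.0081), as was NGLY1, the N-glycanase that edits NFE2L1 (-0.95 ± 0.27, adjusted p = 0.039). NFE2L1, the transcription factor that raises proteasome genes when proteasomes are inhibited, measured 64.6 ± 15.7 CPM (SD, n = 2) in HEK and 94.0 ± 19.9 CPM in Jurkat and did not pass (adjusted p = 0.079). POMP, which matures the core, and SEM1, a small subunit of the lid outside the naming rule, were level, with log2 fold changes of -0.24 ± 0.19 and -0.23 ± 0.21.

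Promoter windows were read for the members that RefSeq gives one, 250 bases before to 50 after the transcript start on GRCh38.p14. Of the 48 members 42 matched, with 52 windows, and PSMA7, PSMB1, PSMB6, PSMB7, PSMD4 and PSMG3 did not. On either strand, CCGGAAG, the core of sites for ETS factors, was in 34.6% of the member windows and 10.3% of all 35116 windows. TGACNNNGC, the core of the element bound by NFE2L1 and NFE2L2, was in 26.9% and 13.3%. CCAAT, the letters read by NF-Y, were in 44.2% and 34.6%. GAAANNGAA, found in sites of interferon regulatory factors, was in 13.5% and 8.11%. A match of letters is not a site in use.

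GAAANNGAA was in 7 members, PSMA4, PSMB4, PSMB10, PSMC2, PSME1, PSME2 and PSMG4. Of these, PSME1, PSME2, PSMB10 and PSMA4 were called higher in Jurkat, as were 9 of 47 members and 19.0% of all genes, and the other 3 were not called. PSMA4 lost its call in 4 of 8 alternatives, and nothing is read from so small a group. In PSME1, PSME2 and PSMB10 the letters were the same, GAAAGCGAA, starting 28 bases before the start of PSME2, 21 before that of PSMB10 and, on the opposite strand as TTCGCTTTC, at base 7 after that of PSME1. PSME1 and PSME2 also held TGACNNNGC, from 86 and 175 bases before the start. Of the other members called higher in Jurkat, PSMA4, PSMA6, PSMD5 and PSMG2 also held motif letters and are not shown. Stretches are shown for PSME1, PSME2, PSMB10 and PSMA8, which are 4 of the 9 members called higher in Jurkat. The stretches have motif letters in capitals and run 5′ to 3′ on the strand of the gene. They lie at chr16:67936851-67937100 (minus strand) for PSMB10, chr14:24135944-24136162 (plus strand) and chr14:24136191-24136217 for PSME1, chr14:24146621-24146647 (minus strand) for PSME2 and chr18:26133619-26133851 (plus strand) for PSMA8. In PSMA8 the capitals are CCGGAAG on the opposite strand, 34 bases before the start, and a second match begins at base 2 after it, outside the stretch shown.
PSMB10: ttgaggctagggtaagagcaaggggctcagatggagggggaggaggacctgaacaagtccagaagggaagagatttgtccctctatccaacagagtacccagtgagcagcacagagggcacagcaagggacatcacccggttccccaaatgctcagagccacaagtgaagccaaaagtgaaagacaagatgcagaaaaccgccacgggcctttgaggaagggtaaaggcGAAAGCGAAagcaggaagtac
PSME1, before the start: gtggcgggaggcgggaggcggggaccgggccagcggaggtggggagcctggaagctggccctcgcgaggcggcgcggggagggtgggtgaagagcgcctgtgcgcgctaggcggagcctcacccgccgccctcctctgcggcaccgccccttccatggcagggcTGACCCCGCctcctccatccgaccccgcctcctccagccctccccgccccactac
PSME1, around the start: cctaccgctTTCGCTTTCccttcgcgg
PSME2: ctggggagtGAAAGCGAAagcccgggc
PSMA8: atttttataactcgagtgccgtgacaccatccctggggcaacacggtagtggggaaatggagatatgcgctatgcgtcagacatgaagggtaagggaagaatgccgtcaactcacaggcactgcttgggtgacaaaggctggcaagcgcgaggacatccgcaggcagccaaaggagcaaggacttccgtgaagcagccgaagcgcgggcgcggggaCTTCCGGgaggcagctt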

How the data were processed

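The data were 14 RNA-seq libraries, 2 for each of 7 proportions of HEK-293T and Jurkat cells. Per the labels, reads were aligned with STAR 2.6.1b and counted with RSEM 1.3.1 on GRCh38, together with the ERCC sequences; the annotation release and the use of strand in counting are not given in the sources used here. The authors deposited expected counts, which are not normalized, and TPM. RSEM divides reads that match several genes, and 56.4% of the member values were fractional. Expected counts were rounded for the tests. CPM were computed over genes without ERCC rows, and TPM were rescaled over genes alone. Symbols and coordinates came from GENCODE release 44, which matched 57754 of 58440 genes, and the others held at most 0.327% of a library's counts.

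Tests used edgeR 4.0.16 (filterByExpr, TMM, glmQLFit and glmQLFTest) in R 4.3.3 over all genes, with SE as the absolute log2 fold change divided by the square root of F. The spike-in scale took ERCC totals as library sizes, and the trend took the percentage of HEK cells as a number over the 10 mixed libraries. DESeq2 1.42.0, RLE, no filter, other covariates and leaving out each library were alternatives. Fits were tested on simulated data. The 29 partner genes, the members and the marker lists were chosen with earlier results of these data known. All members could be named, values for every library were given for catalytic subunits, activators, the inhibitor and members past the threshold (at most 8 in a direction), and at most 3 partners in a direction were named, with NFE2L1, POMP and SEM1 added after their values were seen. PSMB7, PSMD7, PSMD11, PSMD10 and PSMD14 were also given by library. Only counting error is covered by the floor of 3 counts. Figures used Python 3.11.15 with matplotlib 3.10.9.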

Additional observations from a re-analysis of the deposited data

How the results depend on the processing

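Members higher in HEK numbered 7 and ranged from 1 to 6 when a pure library was left out, and members higher in Jurkat, 9, from 3 to 10; DESeq2, RLE, no filter and the fit over 14 libraries gave between 6 and 10 in each direction. In the mixtures the 3 falling members were 5 with DESeq2, which added PSMA6 and PSMD5, 1 within the group of 6 mixed libraries, 0 within the group of 4, 0 without both libraries at 20% HEK, an alternative chosen after seeing the data, and 2 to 4 when a single library was left out. Fewer libraries entered those 3 fits, and the cause was not tested otherwise. With no filter, the HEK share of RNA as covariate or the group of file names as a term, 2 members fell and PSME2 was lost. The members' share of pure HEK, 0.630%, was 0.746% of TPM, 0.622% without PSMC3IP and PSME3IP1 and 0.722% of nuclear protein-coding counts, and 0.628% to 0.632% with a library left out. That of pure Jurkat, 0.756%, was 1.02%, 0.748% and 0.845%, and 0.697% to 0.815%. On the spike-in scale no count moved by over 1.5 times. The difference of PSMD2 from the additive level at 20% HEK, 0.027, was -0.039 with the HEK share of RNA from the Jurkat markers. None of the 20 members followed through the alternatives between the pure lines, the 6 in the mixtures or the 4 on the spike-in scale reversed its direction. No paired analysis was possible because replicate numbers follow the order of deposit and pair no samples. Depth limited PSMA8, at 3 and 7 counts at 80% HEK, and PSMD5, at 25 to 96 counts per library.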
